A study of Mus musculus with 10 samples.

Results

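Transcripts of 9 chemokine receptor genes, *Ccr2*, *Ccr4*, *Ccr6*, *Ccr7*, *Ccr8*, *Ccr9*, *Cxcr3*, *Cxcr4* and *Cxcr6*, were followed across 5 sorted populations of mouse spleen CD4+ T cells. The genes were taken by symbol from the 48321 gene symbols of the count files, and all 9 were present in all 10 libraries and passed the filter on low counts that 13796 genes passed. The cells came from C57BL/6 mice carrying a *Foxp3*-GFP reporter, either WT or *Satb1* F/F:*Thpok-cre* (KO), and GFP was read as FoxP3. *Thpok-cre* acts in the whole CD4+ lineage after commitment, so that the KO concerns both Tregs and other CD4+ T cells, and the mice were of mixed sexes. There were 2 libraries in each group: FoxP3+CD25+ cells (Tregs) of WT and of KO mice, FoxP3-CD25- cells (non-Tregs) of WT and of KO mice, and FoxP3+CD25- cells of KO mice. Equal replicate numbers within a genotype were taken to mark 1 mouse, since the labels point to this but do not say it. Because each group holds 2 mice, p-values rest on the spread between 2 samples of a group, pooled over genes and groups.

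Chemokine receptors are G protein-coupled receptors that signal mainly through Gi and steer lymphocytes along gradients of small secreted chemokines. *Ccr7* reads *Ccl19* and *Ccl21* and brings naive and central memory T cells into the T cell zones of lymphoid tissue, whereas *Cxcr4* reads *Cxcl12* and is carried by most T cells. Other members mark cells that enter inflamed or barrier tissue: *Cxcr3* binds *Cxcl9* and *Cxcl10* and belongs to the Th1 programme, *Cxcr6* binds *Cxcl16*, *Ccr2* binds *Ccl2*, *Ccr6* binds *Ccl20*, *Ccr4* binds *Ccl17* and *Ccl22*, *Ccr8* binds *Ccl1* and *Ccr9* binds *Ccl25* of the small intestine. Tregs are known to use several of these, with *Ccr4*, *Ccr6* and *Ccr8* prominent among them.

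Levels are given as CPM, the count of a gene scaled to a common library size with TMM factors, with mean ± SD over 2 libraries. Between 6094952 and 12410064 reads were counted on genes per library, so that 3 counts, taken as the floor, corresponded to 0.248 to 0.496 CPM (counting error only). The sorting was visible in the transcripts: *Foxp3* averaged 667 CPM in WT Tregs, 693 in KO Tregs, 339 in KO FoxP3+CD25- cells, 18.3 in WT non-Tregs and 29.2 in KO non-Tregs, and *Il2ra*, which encodes CD25, averaged 709, 653, 16.8, 2.55 and 8.41 CPM in the same order. *Satb1* counts were not lower in the libraries labelled KO. They stood at 379 and 478 CPM in WT Tregs, 598 and 534 in KO Tregs, 1186 and 993 in the KO FoxP3+CD25- group, 818 and 881 in WT non-Tregs and 841 and 682 in KO non-Tregs. A count over all exons of the gene does not check the loss of a part of it, so the genotype of each library rests on its label. All 7 CD4+ T cell markers were present in every group, at 3468 to 4342 CPM in sum. Summed neutrophil markers reached at most 0.610 CPM, B cell markers 2.58 to 21.0 CPM (highest in the Tregs) and NK cell markers 2.48 to 27.5 CPM, with 13.9 to 27.5 CPM in the non-Tregs of both genotypes and at most 7.47 CPM elsewhere. Only 2 of the 6 B cell markers had enough counts for a test. Of these, *Cd79b* was called higher in WT Tregs than in WT non-Tregs (log2 3.86) and the other was not called (0.55).

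The 2 libraries of WT replicate 1 stood apart before any comparison. That mouse held 14487 *Xist* counts in its Treg library and 16362 in its non-Treg library and no count on Y-linked genes, whereas *Xist* stayed at 4 counts or fewer, and Y-linked genes held 3039 to 4750, in each of the other 8. The same mouse carried more of most receptors that are not *Ccr7* or *Cxcr4*. On the log2 CPM scale, *Ccr2* was 1.86 higher in its Tregs and 2.03 higher in its non-Tregs than in those of WT replicate 2, *Cxcr6* 1.84 and 1.18 higher, and *Cxcr3* 1.16 and 0.93 higher. *Cxcr4* was 0.63 and 0.86 lower. A difference as large as that of *Ccr2* was seen in 1.29% of tested genes between the 2 WT Treg libraries and in 0.29% between the 2 WT non-Treg libraries. Sex and mouse cannot be told apart here. For several values that rest on this mouse, the value without it is given below.

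**Figure D1:**
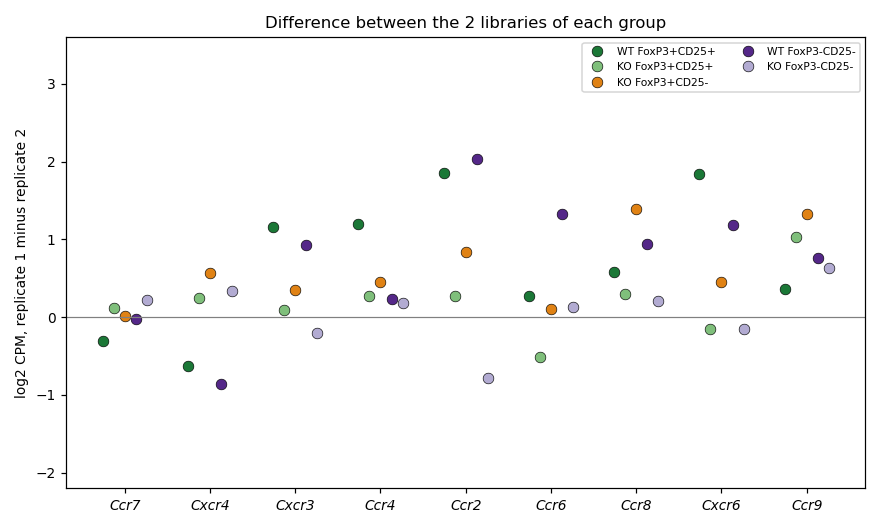
The log2 CPM of replicate 1 minus that of replicate 2 (vertical axis) is plotted for each of the 9 receptors (horizontal axis), with 1 point for each of the 5 groups and a line at 0. The dark green and dark purple points of the WT groups lie highest for Ccr2 (1.86 and 2.03) and Cxcr6 (1.84 and 1.18) and below 0 for Cxcr4.

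**Figure D2:**
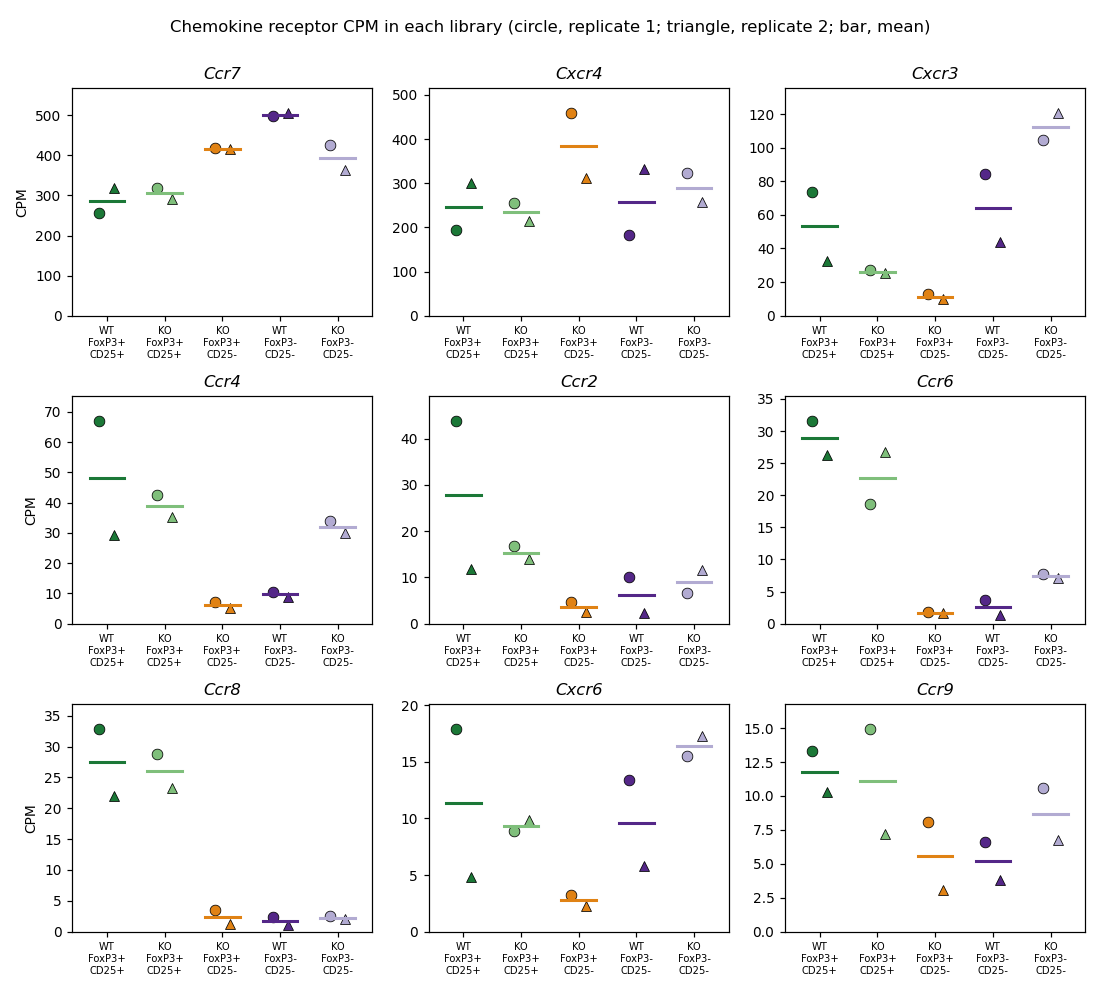
CPM (vertical axis, linear, from 0) of each receptor in every library of the 5 groups (horizontal axis) is shown, with circles for replicate 1, triangles for replicate 2 and a bar at the mean. Ccr8 separates both Treg groups from the other groups, Ccr7 is highest in WT non-Tregs, and the KO FoxP3+CD25- group has the lowest mean for 5 of the receptors.

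*Ccr7* and *Cxcr4* made up most of the receptor transcripts of every group. In sorted bulk populations such as these, fewer cells with a transcript and less of it per cell cannot be told apart. Compared per length, as RPKM (CPM per kilobase of exon), *Ccr7* ranked first and *Cxcr4* second in all 5 groups. Together they made up 74.8% of the summed RPKM of the 9 receptors in WT Tregs, 80.7% in KO Tregs, 88.7% in WT non-Tregs, 79.6% in KO non-Tregs and 96.9% in KO FoxP3+CD25- cells. The sum itself ranged from 352 ± 28.3 RPKM in KO Tregs to 451 ± 41.8 in KO non-Tregs, and was 438 ± 63.0 in KO FoxP3+CD25- cells. *Cxcr3* was the third receptor in 4 groups, with 14.6% ± 2.84 of the sum in KO non-Tregs and 1.48% ± 0.0448 in KO FoxP3+CD25- cells. In KO Tregs *Ccr8* took that place, at 6.29% ± 0.438, ahead of *Cxcr3* at 4.30% ± 0.146. *Ccr9* was the lowest or next to lowest receptor per length throughout, in part because its annotated exons cover 10260 bases.

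**Figure D3:**
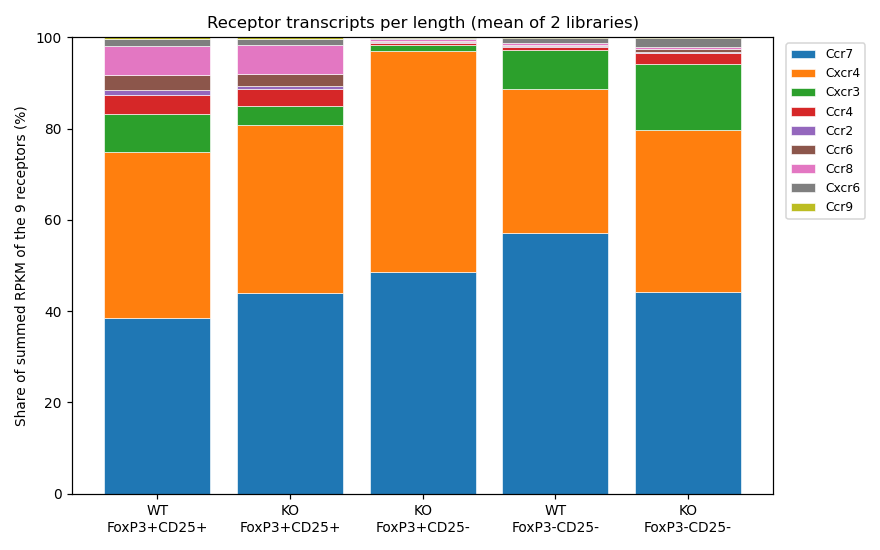
Stacked bars give the share of the summed RPKM of the 9 receptors (vertical axis, percent) taken by each receptor in each of the 5 groups (horizontal axis), as the mean of 2 libraries. Ccr7 and Cxcr4 fill 96.9% of the bar of KO FoxP3+CD25- cells, and between 74.8% and 88.7% of the others.

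Of the 9 genes, 5 lie on chromosome 9 (mm10), where *Ccr9*, *Cxcr6* and *Ccr2* fall within 435119 bases, with *Cxcr6* between the other two. The regions just upstream of the start are printed for *Ccr8*, *Ccr6*, *Ccr4* and *Cxcr3*, the receptors that passed the test in the most comparisons below. They were taken from the RefSeq promoter table (GRCm38.p6, the assembly that mm10 names), which held 8 of the 9 members, with *Ccr7* missing, and were cut where an annotated exon begins. Each is read 5′ to 3′ on the strand of its gene and precedes a start of that gene. The window of *Ccr4* lies inside the full annotated extent of the gene (chr9:114490316-114504916), before the first exon of a shorter transcript.
Ccr8, chr9:120091883-120092113, plus strand: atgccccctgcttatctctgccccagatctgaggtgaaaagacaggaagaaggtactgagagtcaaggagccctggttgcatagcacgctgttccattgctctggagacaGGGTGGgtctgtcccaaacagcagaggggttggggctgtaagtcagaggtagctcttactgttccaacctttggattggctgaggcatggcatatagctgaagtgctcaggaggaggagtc
Ccr6, chr17:8235793-8236042, plus strand: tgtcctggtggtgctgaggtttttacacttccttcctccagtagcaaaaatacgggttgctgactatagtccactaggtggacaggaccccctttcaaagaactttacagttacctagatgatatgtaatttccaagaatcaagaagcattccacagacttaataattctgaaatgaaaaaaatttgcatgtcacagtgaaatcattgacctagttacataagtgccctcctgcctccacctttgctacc
Ccr4, chr9:114496563-114496794, minus strand: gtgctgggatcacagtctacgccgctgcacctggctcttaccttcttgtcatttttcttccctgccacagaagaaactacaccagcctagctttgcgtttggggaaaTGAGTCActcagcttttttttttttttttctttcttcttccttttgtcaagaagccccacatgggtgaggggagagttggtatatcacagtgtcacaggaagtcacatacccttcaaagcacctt
Cxcr3, chrX:101734270-101734397, minus strand: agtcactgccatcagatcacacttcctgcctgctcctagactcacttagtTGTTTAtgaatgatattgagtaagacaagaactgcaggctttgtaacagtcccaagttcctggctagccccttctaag
Capitals mark matches to 4 motifs searched on both strands of the 250 bases before each start: AP-1 (TGANTCA), T-box (TCACACC), forkhead (TAAACA) and KLF (CCACCC). The *Ccr4* window held an AP-1 match 143 bases before the start, a motif found in 6.75% of 32841 promoter windows. *Ccr8* held a KLF match on the opposite strand 140 bases before the start, and *Ccr9* a KLF match 74 bases before it, with 28.1% of windows holding that motif. *Cxcr3* held a forkhead match on the opposite strand 200 bases before the start (12% of windows). None of the windows of *Ccr2*, *Ccr6*, *Cxcr4* or *Cxcr6* held any of the 4, and no member held the T-box motif, which 3.33% of windows hold. The share of A and T was 62.8% in the *Ccr2* window, 58.8% in the first of 2 windows of *Ccr6* and 38.8% in that of *Cxcr4*, against a median of 47.6% over all windows. These matches are a description of the letters only.

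*Ccr8*, the receptor for *Ccl1* that marks Tregs, was the receptor that best followed the CD25+ sort. It stood at 32.9 and 22.0 CPM in WT Tregs and 28.8 and 23.3 CPM in KO Tregs. The other 6 libraries held 1.14 to 3.56 CPM, on 11 to 29 counts, so that no library of the other groups came near a Treg library. *Ccr8* was 14.9-fold higher in WT Tregs than in WT non-Tregs (log2 fold change 3.90, SE 0.387, adjusted p = 1.11e-04) and 11.4-fold higher in KO Tregs than in KO non-Tregs (3.51, SE 0.414, adjusted p = 6.13e-04). In KO FoxP3+CD25- cells, which carry the *Foxp3* reporter without CD25, it was 11.8-fold lower than in KO Tregs (adjusted p = 4.87e-04) and 12.4-fold lower than in WT Tregs (adjusted p = 2.43e-04). These log2 differences were -3.56 and -3.63, and became -4.42 and -4.50 without KO FoxP3+CD25- replicate 1 and -2.86 and -2.92 without replicate 2, still past the threshold. In WT mice the Treg difference was 4.56 without WT non-Treg replicate 1. Against KO non-Tregs it differed by -0.05 on the log2 scale (95% interval -1.36 to 1.25), and against WT non-Tregs by 0.26 (-0.98 to 1.51). Between KO and WT Tregs the difference was -0.07 (-0.71 to 0.57).

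*Ccr6*, the receptor for *Ccl20*, was also a Treg receptor in both genotypes. Its values were higher in KO than in WT non-Tregs, but this difference did not pass edgeR's test (log2 1.49, adjusted p = 0.239). WT Tregs held 31.6 and 26.2 CPM and KO Tregs 18.6 and 26.7 CPM. KO non-Tregs followed with 7.77 and 7.11 CPM, WT non-Tregs with 3.73 and 1.34 CPM and KO FoxP3+CD25- cells with 1.78 and 1.64 CPM, inside the range of the WT non-Tregs. *Ccr6* was 10.9-fold higher in Tregs than in non-Tregs of WT mice (log2 3.45, SE 0.332, adjusted p = 9.15e-05; log2 4.40 without WT non-Treg replicate 1 and 4.28 without both libraries of that mouse) and 3.06-fold higher in KO mice (log2 1.62, SE 0.314, adjusted p = 0.0112). The latter call was lost without KO Treg replicate 2 (log2 1.32, adjusted p = 0.117) and without KO non-Treg replicate 1 (adjusted p = 0.0613) or replicate 2 (adjusted p = 0.0968). In KO FoxP3+CD25- cells *Ccr6* was 13.3-fold lower than in KO Tregs (adjusted p = 3.16e-04), 16.9-fold lower than in WT Tregs (adjusted p = 9.71e-05) and 4.34-fold lower than in KO non-Tregs (log2 -2.12, SE 0.456, adjusted p = 0.0473). The last of these rests on 11 and 15 counts in the FoxP3+CD25- libraries and lost the call in 8 of the 10 fits without 1 library, with adjusted p up to 0.338.

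*Ccr4*, which reads *Ccl17* and *Ccl22*, was high in Tregs of both genotypes and in KO non-Tregs, and low in WT non-Tregs and KO FoxP3+CD25- cells. WT Tregs held 67.1 and 29.2 CPM and KO Tregs 42.4 and 35.2 CPM. KO non-Tregs, at 34.1 and 29.9 CPM, lay within the range of the WT Tregs and just under the KO Tregs. WT non-Tregs held 10.5 and 8.87 CPM and KO FoxP3+CD25- cells 7.27 and 5.25 CPM. In WT mice *Ccr4* was 4.92-fold higher in Tregs than in non-Tregs (log2 2.30, SE 0.333, adjusted p = 1.11e-03), and by 1.59 on the log2 scale without WT Treg replicate 1. In KO mice the same difference was 0.28 on the log2 scale (SE 0.315, 95% interval -0.42 to 0.98, adjusted p = 0.784). KO FoxP3+CD25- cells had less *Ccr4* than KO Tregs (6.30-fold, adjusted p = 1.62e-03), WT Tregs (7.80-fold, adjusted p = 4.70e-04) and KO non-Tregs (5.19-fold, log2 -2.38, SE 0.379, adjusted p = 0.0109). The difference from WT Tregs was -2.96 on the log2 scale and -2.25 without WT Treg replicate 1 (adjusted p = 4.71e-04). The call against KO non-Tregs was lost without KO FoxP3+CD25- replicate 1 (adjusted p = 0.0512) or replicate 2 (adjusted p = 0.146).

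*Cxcr3*, the Th1-associated receptor for *Cxcl9* and *Cxcl10*, had its highest values in KO non-Tregs and its lowest in KO FoxP3+CD25- cells of the same mice. KO non-Tregs held 104 and 121 CPM, WT non-Tregs 84.3 and 44.1 CPM and WT Tregs 73.5 and 32.7 CPM. KO Tregs held 27.0 and 25.3 CPM and KO FoxP3+CD25- cells 12.6 and 9.85 CPM. The 2 WT groups overlapped each other, and both had their higher value in replicate 1. *Cxcr3* was 4.31-fold lower in Tregs than in non-Tregs of KO mice (log2 -2.11, SE 0.364, adjusted p = 5.86e-03), a call lost without KO Treg replicate 2 (log2 -2.06, adjusted p = 0.0597). In WT mice the difference was -0.28 (SE 0.342, 95% interval -1.04 to 0.47, adjusted p = 0.714). KO FoxP3+CD25- cells had less *Cxcr3* than KO non-Tregs (10.1-fold, log2 -3.34, SE 0.398, adjusted p = 2.45e-03), WT non-Tregs (5.80-fold, log2 -2.54, SE 0.393, adjusted p = 0.0184) and WT Tregs (4.77-fold, adjusted p = 3.86e-03). The first was lost without KO FoxP3+CD25- replicate 2 (adjusted p = 0.0590). The second was lost without KO FoxP3+CD25- replicate 1 (adjusted p = 0.105) or replicate 2 (adjusted p = 0.167) and without WT non-Treg replicate 1 (log2 -1.99, adjusted p = 0.147), and was -1.93 with a term for WT replicate 1. The third, -2.25 on the log2 scale, was -1.57 without WT Treg replicate 1 (adjusted p = 0.0260) and -1.63 with that term.

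*Cxcr6* and *Ccr2*, receptors of effector and tissue-homing T cells, ran lower and differed most between the WT mice. *Cxcr6* stood at 15.5 and 17.3 CPM in KO non-Tregs, 17.9 and 4.84 in WT Tregs, 13.4 and 5.78 in WT non-Tregs, 8.85 and 9.83 in KO Tregs and 3.23 and 2.30 in KO FoxP3+CD25- cells. The last group lay below every other library, yet none of its differences in *Cxcr6* passed edgeR's test in the reported model, which has no block: -2.60 against KO non-Tregs (adjusted p = 0.0715), -2.06 against WT Tregs (0.0642), -1.85 against WT non-Tregs (0.338) and -1.79 against KO Tregs (0.155). Of the alternative fits, 6 of 9 called the difference from KO non-Tregs and 4 of 9 that from KO Tregs. For WT Tregs it was 3 of 8 and for WT non-Tregs 1 of 8. Without 1 library, the difference from WT Tregs ranged from -2.73 to -0.85 and that from WT non-Tregs from -2.30 to -1.10. *Ccr2* was at 43.9 and 11.9 CPM in WT Tregs, 16.8 and 13.9 in KO Tregs, 6.62 and 11.6 in KO non-Tregs, 10.02 and 2.27 in WT non-Tregs and 4.69 and 2.52 in KO FoxP3+CD25- cells. The higher value of each WT group came from replicate 1. *Ccr2* was lower in KO FoxP3+CD25- cells than in WT Tregs (8.02-fold, log2 -3.00, SE 0.726, adjusted p = 0.0220). Without WT Treg replicate 1 that difference was -1.80 (adjusted p = 0.166), and the call was also lost without KO FoxP3+CD25- replicate 1 (adjusted p = 0.0678) or replicate 2 (adjusted p = 0.172). With both libraries of WT replicate 1 left out it was -1.80 with an adjusted p of 0.0429, with a term for that mouse -1.74, and without WT Treg replicate 2 -3.67.

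*Ccr7*, the lymph node homing receptor, ran opposite to the Treg receptors. WT non-Tregs held 498 and 506 CPM, KO FoxP3+CD25- cells 418 and 415, KO non-Tregs 425 and 364, KO Tregs 318 and 292 and WT Tregs 256 and 318. The KO FoxP3+CD25- values fell within the range of the KO non-Tregs and above every Treg library. *Ccr7* was 1.75-fold lower in Tregs than in non-Tregs of WT mice (log2 -0.81, SE 0.125, adjusted p = 1.70e-03), and -0.37 on the log2 scale in KO mice (adjusted p = 0.135). It was 1.45-fold higher in KO FoxP3+CD25- cells than in WT Tregs (log2 0.54, SE 0.125, adjusted p = 0.0178). That call was lost without KO FoxP3+CD25- replicate 1 (adjusted p = 0.0831) or replicate 2 (adjusted p = 0.0823), without WT Treg replicate 1 (log2 0.39, adjusted p = 0.107) and with a term for WT replicate 1 (adjusted p = 0.0566).

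*Cxcr4*, the receptor for *Cxcl12*, was spread widely within groups. It stood at 460 and 311 CPM in the KO FoxP3+CD25- group, 323 and 256 in KO non-Tregs, 183 and 332 in WT non-Tregs, 194 and 300 in WT Tregs and 254 and 215 in KO Tregs. The KO FoxP3+CD25- libraries lay above every Treg library and overlapped both non-Treg groups, and *Cxcr4* passed in no comparison of the model without a block. *Ccr9*, the gut homing receptor, was low, from 3.06 to 14.95 CPM, with the highest mean in WT Tregs (11.8 ± 2.14) and the lowest in WT non-Tregs (5.22 ± 1.99). It too passed in no comparison of that model. Counts of both *Ccr9* and *Cxcr6* carry a further limit. The strand setting of the counting is not given in the sources used here, all 1931 exon bases of *Cxcr6* lie within *Fyco1* on the opposite strand, though none in its exons, and 1932 exon bases of *Ccr9* overlap exons of the antisense gene *AC165425.1*. Exons of *Slc6a20a*, also antisense, overlap 22 exon bases of *Ccr9*. On the same strand, 269 exon bases of *Ccr9* lie in exons of *Gm17200*, an overlap that remains under any strand setting. *Fyco1* itself stood at 95.9 to 113 CPM in all libraries.

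The first comparison, Tregs against non-Tregs in WT mice, gives the receptor profile of normal Tregs in these data. Of the 9 receptors, 4 passed the test, *Ccr4*, *Ccr6* and *Ccr8* higher and *Ccr7* lower, where 10.9% of all tested genes passed. The median log2 fold change of the 9 was 1.15, against -0.02 over all tested genes. These 4 calls stood in all 10 fits without 1 library. The correlation of same-numbered libraries within a genotype allowed the mouse to enter as a block, and then *Ccr2* (log2 2.20, adjusted p = 1.20e-04) and *Ccr9* (1.18, adjusted p = 3.35e-03) passed as well, with 19.1% of all genes. The *Ccr2* difference was 2.104 in mouse 1 and 2.27 in mouse 2, although their levels differed.

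In KO mice the same comparison called 3 receptors, *Ccr6* and *Ccr8* higher and *Cxcr3* lower in Tregs, against 6.34% of all genes. With the mouse as a block, *Ccr7* (-0.37, adjusted p = 0.0201) and *Cxcr6* (-0.81, adjusted p = 0.0325) were lower too, making 5 of 9 against 12% of all genes. Whether the Treg difference itself differed between genotypes was tested as an interaction. In the model without a block, edgeR's quasi-likelihood test called no gene at all (0%), with 4.97% of genes and 4 of the 9 receptors at an unadjusted p under 0.05. Those 4 were *Ccr4* (-2.02, adjusted p = 0.520), *Ccr6* (-1.83, adjusted p = 0.554), *Cxcr3* (-1.83, adjusted p = 0.631) and *Ccr7* (0.44, adjusted p = 0.952). With the mouse as a block 1.07% of genes passed, among them 3 receptors: *Cxcr3* by -1.81 (SE 0.179, adjusted p = 2.83e-03), *Ccr4* by -1.98 (SE 0.264, adjusted p = 5.90e-03) and *Ccr6* by -1.87 (SE 0.384, adjusted p = 0.0493). The DESeq2 Wald test without a block called *Ccr4* only among the receptors, where 25 genes passed (0.249% of the genes to which DESeq2 gave an adjusted p). Within each mouse, *Ccr4* was higher in Tregs by 2.64 and 1.69 on the log2 CPM scale in WT and by 0.31 and 0.24 in KO. *Cxcr3* was lower by 0.20 and 0.43 in WT and by 1.94 and 2.25 in KO.

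**Figure D4:**
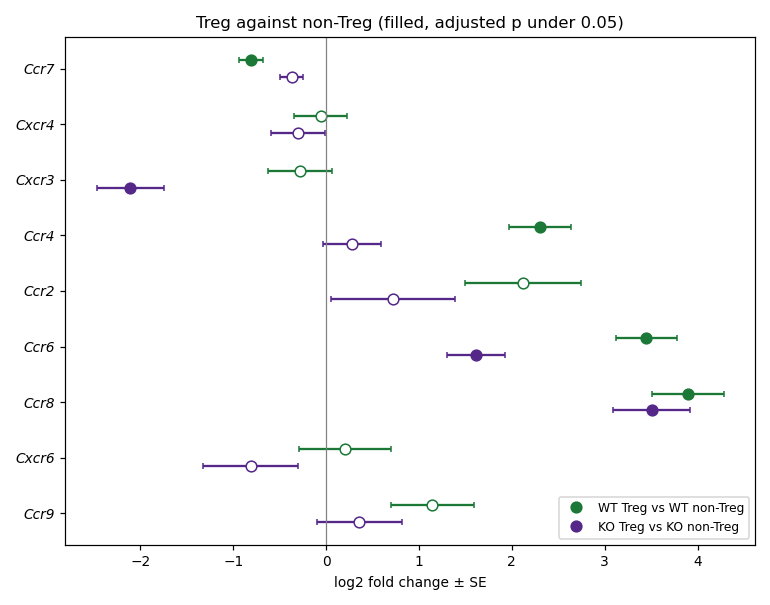
The log2 fold change of Tregs over non-Tregs (horizontal axis, with SE as bars) is plotted for each receptor (vertical axis) in WT (green) and KO (purple) mice, with filled points at an adjusted p under 0.05. Ccr4 is at 2.30 in WT and 0.28 in KO, and Cxcr3 at -0.28 in WT and -2.11 in KO, whereas Ccr8 is at 3.90 and 3.51.

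The direct comparison of genotypes asks what changed within each population. In Tregs, none of the 9 receptors passed edgeR's test, and 1 gene of 13796 did (0.00725%). A single receptor was at an unadjusted p under 0.05, *Cxcr3*, lower in KO (-1.02, adjusted p = 0.9999), and it was at -0.32 with both libraries of WT replicate 1 left out. DESeq2 also called none. Another 5 receptors had a fitted log2 difference below 0 in KO Tregs that was above 0 without that mouse: *Ccr2* (-0.86 and 0.36), *Ccr4* (-0.31 and 0.41), *Cxcr6* (-0.27 and 0.95), *Ccr8* (-0.07 and 0.24) and *Ccr9* (-0.11 and 0.09).

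In non-Tregs again no receptor passed edgeR's test, where 0.145% of genes did, and 4 of 9 receptors against 8.02% of genes were at an unadjusted p under 0.05. *Ccr4* was 3.28-fold higher in KO non-Tregs (log2 1.71, SE 0.341, 95% interval 0.96 to 2.46, adjusted p = 0.103), with both KO libraries above both WT libraries. *Ccr6* was at 1.49 (adjusted p = 0.239) and at 2.46 without WT non-Treg replicate 1 (adjusted p = 0.181), *Cxcr3* at 0.81 (adjusted p = 0.574) and *Ccr7* at -0.35 (adjusted p = 0.458). The calls here differed between fits, some of which left out WT replicate 1. With both libraries of that mouse left out, *Ccr4* (1.85, adjusted p = 0.0487) and *Cxcr3* (1.36, adjusted p = 0.0480) passed, and with a term for that mouse *Ccr2*, *Ccr4*, *Cxcr3* and *Cxcr6* passed. *Ccr4* alone passed without WT Treg replicate 1 (adjusted p = 6.09e-03) or WT Treg replicate 2 (adjusted p = 6.15e-03), neither of which is a library of this comparison. DESeq2 called *Ccr4* (adjusted p = 6.12e-05) and *Ccr6* (0.0199). Over all alternatives and left-out libraries, the adjusted p for *Ccr4* ranged from 6.12e-05 to 0.521.

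KO FoxP3+CD25- cells, for which no WT library was analysed here, were compared with each other group. Against KO Tregs of the same mice, *Ccr4*, *Ccr6* and *Ccr8* passed as lower and no receptor as higher, with 7.01% of all genes called. With the mouse as a block all 9 receptors passed, *Ccr7* (0.45) and *Cxcr4* (0.69) as higher and the other 7 as lower, against 15.1% of all genes. The smallest of the falls was that of *Ccr9* (-1.03, adjusted p = 0.0187). In the model without a block, the calls of this comparison also moved without either WT Treg library, although neither is compared. Against WT Tregs 6 receptors passed, *Ccr2*, *Ccr4*, *Ccr6*, *Ccr8* and *Cxcr3* lower and *Ccr7* higher, with 11.2% of all genes.

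Against non-Tregs the FoxP3+CD25- cells had lower *Cxcr3* whichever genotype was used. In the same mice, *Ccr4*, *Ccr6* and *Cxcr3* were lower where 1.67% of all genes passed, and none was higher. Without KO FoxP3+CD25- replicate 1, *Cxcr3* alone was called, and without replicate 2 none was. With the mouse as a block 6 receptors passed against 5.7% of all genes: *Cxcr6* (-2.61, adjusted p = 2.35e-04) and *Ccr2* (-1.44, adjusted p = 0.0401) joined the falls, and *Cxcr4* was higher (0.40, adjusted p = 0.0340). Against WT non-Tregs *Cxcr3* alone passed, where 0.768% of genes did. *Ccr4* was at -0.66 there (95% interval -1.55 to 0.23), *Ccr6* at -0.63 (-1.75 to 0.50) and *Ccr7* at -0.27 (-0.54 to 0.01). Both comparisons share the FoxP3+CD25- libraries, and NK cell markers moved with them: their sum was 3.06 to 3.72 CPM in these cells and 13.9 to 27.5 CPM in the non-Tregs, with *Ncr1* at 0 in KO FoxP3+CD25- cells and KO non-Tregs. Their part in the *Cxcr3* difference was not tested.

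**Figure D5:**
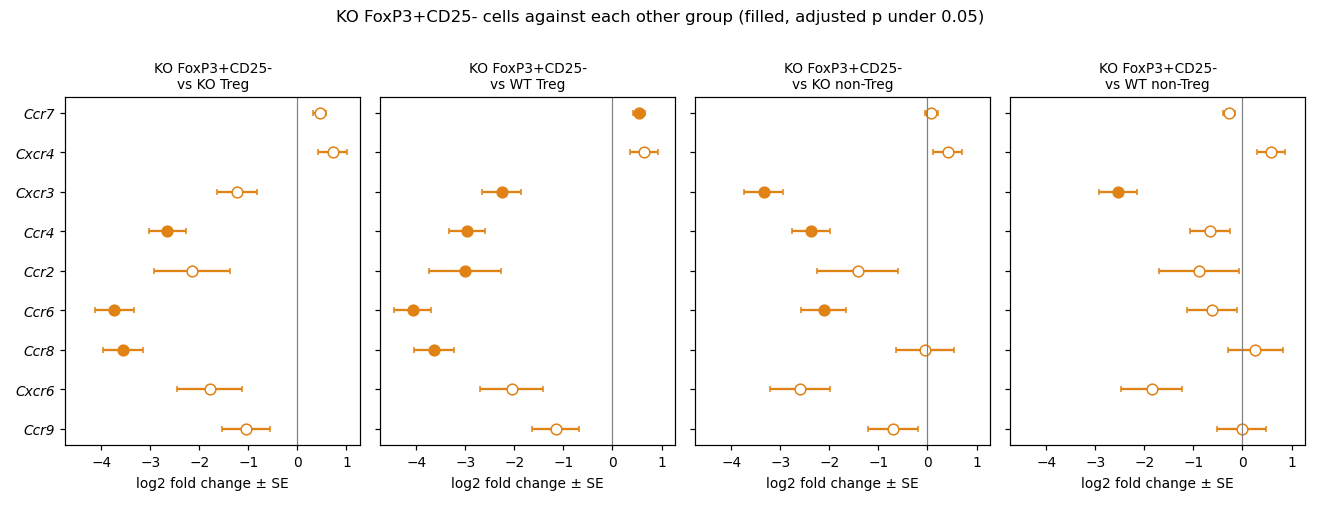
Each panel gives the log2 fold change (horizontal axis, with SE as bars) of KO FoxP3+CD25- cells over another group for the 9 receptors (vertical axis), with filled points at an adjusted p under 0.05. Ccr8 is at -3.56 and -3.63 against the Tregs and at -0.05 and 0.26 against the non-Tregs, whereas Cxcr3 lies below 0 in all 4 panels.

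Of 17 other receptors of the family, 8 had enough counts for a test, and *Ccr1*, *Ccr1l1*, *Cxcr1*, *Cxcr2*, *Xcr1*, *Ackr1*, *Ackr2*, *Ackr3* and *Cmklr1* did not, with at most 19 counts in any library. *Cxcr5*, which brings T cells to B cell follicles, was the most abundant of the 8 in CPM. Like *Cxcr3*, it had its highest mean in KO non-Tregs and its lowest in KO FoxP3+CD25- cells, but the order of the WT groups differed. It averaged 62.1 ± 17.4 CPM in KO non-Tregs, 50.0 ± 3.79 in WT Tregs, 35.2 ± 1.5004 in WT non-Tregs, 31.6 ± 9.96 in KO Tregs and 11.4 ± 0.314 in KO FoxP3+CD25- cells. *Cxcr5* was lower in the FoxP3+CD25- cells than in KO non-Tregs (-2.45, adjusted p = 8.32e-04), KO Tregs (-1.48, adjusted p = 4.70e-03), WT non-Tregs (-1.63, adjusted p = 0.0149) and WT Tregs (-2.13, adjusted p = 2.89e-04). *Ccrl2*, a receptor that binds chemerin without signalling, was higher in Tregs than in non-Tregs of WT (2.06) and KO mice (1.90). *Gpr15*, a colon homing receptor, was higher in WT Tregs (3.10, adjusted p = 8.99e-03), on 33 to 120 counts in WT Tregs, where the higher count was again that of replicate 1. *Ccr10* was higher in KO non-Tregs than in KO Tregs (log2 -2.90 for Tregs over non-Tregs) on 18 and 19 counts against 2 and 3.

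Ligands were scarce, with 5 of 34 tested. *Cxcl10* was higher in WT Tregs than in WT non-Tregs (1.80, adjusted p = 5.04e-03) and lower in KO FoxP3+CD25- cells than in Tregs of KO (-1.85) and WT mice (-2.61). Of 30 genes of the signalling chain from the receptor to integrin activation, 29 were tested, at most 7 passed in any comparison (in KO FoxP3+CD25- cells against WT Tregs, where 11.2% of all genes did), and their median lay between -0.09 and 0.06 in all 9. The gene called most often was *Gng2*, a G protein gamma subunit. It was lower in KO FoxP3+CD25- cells than in KO non-Tregs (-2.21, adjusted p = 3.42e-04), KO Tregs (-1.84), WT non-Tregs (-1.46) and WT Tregs (-2.05), and was the single signalling gene called against either non-Treg group. *Pik3r5*, a subunit of the PI3K that Gi-coupled receptors use, and *Rasgrp2*, which activates Rap1, were lower in Tregs than in non-Tregs of both genotypes, and *Plcb3* was higher. Of 18 genes that switch receptors off, 14 were tested. *Rgs1* was higher in Tregs of both genotypes (1.74 and 1.94), the kinase gene *Grk6* and the arrestin gene *Arrb2* were lower, and *Rgs16* was lower in KO FoxP3+CD25- cells than in KO (-3.25) and WT Tregs (-4.15).

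Genes of lymph node homing, egress and tissue retention went both ways in WT Tregs, with a median log2 fold change of -0.0013 against -0.02 over all genes. Where 10.9% of all genes passed, 2 of 16 tested genes were higher than in non-Tregs, *Itgae* (5.97), which encodes an integrin subunit that binds E-cadherin, and *Ptger4* (1.31), and 4 were lower, *St3gal6*, *Gpr183*, *S1pr1* and *S1pr4*. *S1pr1*, the receptor for egress from lymphoid tissue, fell by 0.89 there and by 0.59 in KO mice, and was higher in KO FoxP3+CD25- cells than in KO (0.87) and WT Tregs (1.13). *Itgb1* was lower in the FoxP3+CD25- cells than in all 4 other groups, by -2.79 against KO non-Tregs and -1.74 against WT non-Tregs.

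Effector and memory genes shared the direction of *Cxcr3* in the KO FoxP3+CD25- cells. Of 24 such genes 12 were lower than in KO non-Tregs and none was higher, where 1.67% of all genes passed, with a median of -1.57 against 0.01 over all genes; *Cd44* (-3.17), *Ifng* (-5.32), *Tbx21* (-3.98) and *Itgb1* (-2.79) were among them. Against WT non-Tregs 5 were lower and none higher, where 0.768% of all genes passed, and *Cd44* (-2.45), *Ifng* (-4.68) and *Tbx21* (-3.15) were again included. The median there was -0.73. Between KO and WT non-Tregs the median of the 24 was 0.75, with 0 called where 0.145% of all genes were. Against KO Tregs 9 were lower and 1 higher (7.01% of all genes called), and against WT Tregs 9 were lower and 2 higher (11.2%). Naive T cell genes were counted beside *Ccr7*. Of 17, 8 were lower and 1 higher in WT Tregs than in WT non-Tregs, where 10.9% of all genes passed, and 7 were lower in KO Tregs, where 6.34% did. In KO FoxP3+CD25- cells 7 were higher than in KO Tregs (7.01% of all genes called), with *Lef1* (1.25) and *Il7r* (1.501) at the lowest p and *Dapl1* at the largest fold change (2.37), and 8 than in WT Tregs (11.2%), while none passed against either non-Treg group.

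Across the 10 libraries, the genes whose log2 CPM ran most like each receptor were looked up, as a description over libraries that share mice and groups. *Cxcr3* ran closest to *Tbx21*, the Th1 transcription factor gene (Pearson r = 0.975), and *Itgb1* (0.974). *Ccr8* ran closest to *Itgae* (0.989), *Zc3h12c* (0.989) and *Ctla4* (0.988), *Ccr4* to *Dhrs3* (0.992), *Rora* (0.984) and *Pdcd1* (0.981), and *Ccr6* to *Osbpl3* (0.990), *Ndfip1* (0.990) and *Ybx3* (0.987). For *Ccr7* they were *Gm16286* (0.978), *Me2* (0.971) and *Nxf1* (0.967), for *Ccr2* *Bhlhe40* (0.972), *Hic1* (0.964) and *Cep162* (0.963), and for *Cxcr6* *Il18rap* (0.961). *Cxcr4* ran closest to *Txnip* (0.943) and *Ccr9* to *Itgal* (0.960). Among the receptors themselves, *Ccr4* and *Ccr6* had the highest r (0.918), followed by *Ccr6* with *Ccr8* (0.904) and *Cxcr3* with *Cxcr6* (0.899), and *Ccr7* had its lowest r with *Ccr8* (-0.890). *Cxcr3* and *Ccr8* were near 0 (-0.05).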

How the data were processed

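RNA-seq counts of 10 libraries of sorted spleen CD4+ T cells (5 groups, 2 libraries each) were analysed. The authors used HISAT2 (version 2.1.0) to align 50-base reads to mm10, obtained counts per gene symbol from HTSeq (version 0.11.1 in the submitters' processing notes), and deposited these counts without normalization. The strand setting of the counting and the annotation are not given in the sources used here. Reads on genes were 26.0% to 28.5% of each library, and HTSeq's tallies of unassigned reads were left out of library sizes.

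All libraries entered 1 model of group means in edgeR (version 4.0.16, R version 4.3.3, limma version 3.58.1): filterByExpr with a minimum count of 10, TMM factors, and the newer quasi-likelihood fit with two-sided F-tests. P-values were adjusted by Benjamini and Hochberg over all 13796 tested genes, with calls at 0.05, and intervals are at 95%. The SE is the fold change divided by the root of its F. The biological coefficient of variation was 0.147. RPKM divided CPM by the union of GENCODE M21 exons. Exact permutation of 2 against 2 libraries cannot go below p = 0.333 and was not used.

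The number in a label was read as the mouse: the deviations of same-numbered libraries from their group means correlated at 0.303 in WT and 0.421 to 0.445 in KO, and at -0.011 to 0.114 between genotypes. A fit with the mouse as a block is quoted where it changed a call.

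The 9 receptors and the gene lists were chosen with earlier results of these data known. The genes named are the receptors, *Satb1*, *Foxp3* and *Il2ra*, up to 4 genes of lowest p in each list and comparison, other receptors, overlapping genes and the 3 genes most correlated with each receptor (log2 CPM with a prior count of 2). *Xist*, *Ncr1* and the Y-linked genes were named after their values were seen. Alternatives were RLE factors, library size alone, no filter, DESeq2 (version 1.42.0), the legacy quasi-likelihood method, blocks for the replicate number or the mouse, a term for WT replicate 1 and each library left out. Leaving out both libraries of WT replicate 1 was chosen after seeing the data. Only the reported model, without a block, was tested on simulated data. The alternatives, among them the fit with the mouse as a block, were not. Figures used matplotlib (version 3.10.9).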

Additional observations from a re-analysis of the deposited data

Results flagged for a closer look

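The Treg minus non-Treg difference of 3 receptors differed between KO and WT mice by the test of the difference itself, in the fit with the mouse as a block (edgeR's quasi-likelihood test over all 13796 genes). In that fit 1.07% of all genes passed. On the log2 scale, KO minus WT, it was -1.98 for *Ccr4* (adjusted p = 5.90e-03), -1.87 for *Ccr6* (adjusted p = 0.0493) and -1.81 for *Cxcr3* (adjusted p = 2.83e-03). The differences within mice come from the same libraries as that test and give it no separate support. *Ccr4* was at 2.64 and 1.69 in WT mice and at 0.31 and 0.24 in KO mice. *Ccr6* was at 3.003 and 4.06 in WT and 1.23 and 1.87 in KO. *Cxcr3* was at -0.20 and -0.43 in WT and -1.94 and -2.25 in KO. In the reported model, which has no block, none of the 3 passed. A lower value in KO was not particular to these 3. In that model the median difference was -1.02 over the 9 receptors and -1.16 over the 8 other receptors tested. It was -1.33 over 5 Treg markers and -0.94 over 24 effector and memory genes, against 0.01 over all genes. Other lists lay above 0, with 0.18 over 17 naive T cell genes and 0.68 over 5 chemokine ligands. Among the alternatives without the mouse block, DESeq2 called *Ccr4*, with 25 genes (0.249% of those it gave an adjusted p). The term for WT replicate 1 called *Cxcr3*, with 0.138% of genes. The calls also moved without WT Treg replicate 2. With groups of 2 libraries, no search for single outlying samples was made.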

How the results depend on the processing

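Of 1503 values of single receptors recomputed under an alternative or without a library, 1346 kept their direction and their side of the threshold, 76 newly passed, 26 no longer passed and 55 changed sign. No receptor that had passed changed sign. RLE factors, library size alone and the legacy quasi-likelihood method changed no count of receptors called by over 1.5 times. Outside the fits without 1 library, the call that was lost was that of *Ccr7* in KO FoxP3+CD25- cells against WT Tregs, with the term for WT replicate 1 or without both its libraries.

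Counts of receptors called in KO FoxP3+CD25- cells against KO Tregs, 3 in the reported model, were 6 without a filter, 5 with DESeq2, 5 with the replicate number as a block, 9 with the mouse as a block, 8 with the term for WT replicate 1 and 7 without both its libraries, where 3.94%, 7.34%, 10.3%, 15.1%, 8.13% and 7.77% of all genes were called (7.01% in the reported model). In KO against WT non-Tregs, 0 in the reported model, they were 1, 2, 1, 4 and 2 under no filter, DESeq2, the replicate number as a block, the term and the left-out mouse, with 91, 104, 108, 140 and 14 of all genes called (20 in the reported model). With the mouse as a block they were 6 in WT Tregs against WT non-Tregs (4 without it), 5 in KO Tregs against KO non-Tregs, 6 in KO FoxP3+CD25- cells against KO non-Tregs and 3 in the difference of Treg differences, where DESeq2 and the term each gave 1. DESeq2 gave 2 in KO FoxP3+CD25- cells against WT non-Tregs. The replicate number is shared across genotypes only as a number.

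Without 1 library at a time, receptors called ranged from 4 to 5 (WT Tregs against WT non-Tregs), 1 to 3 (KO Tregs against KO non-Tregs), 0 to 3 (KO FoxP3+CD25- cells against KO non-Tregs), 3 to 7 (against KO Tregs), 0 to 1 (against WT non-Tregs), 4 to 7 (against WT Tregs), 0 to 0 (KO against WT, Tregs), 0 to 1 (non-Tregs) and 0 to 2 (difference of Treg differences). A group left with 1 library is assumed to vary like the others. Counts of all genes called also moved by over 1.5 times: from 1504 to between 715 and 2634 under the alternatives in WT Tregs against WT non-Tregs, from 874 to at most 1649 in KO Tregs against KO non-Tregs, from 230, 967, 106 and 1548 to between 228 and 786, 959 and 2090, 42 and 238, and 974 and 2154 in KO FoxP3+CD25- cells against KO non-Tregs, KO Tregs, WT non-Tregs and WT Tregs, from 1 to 5 in KO against WT Tregs, from 20 to 140 in non-Tregs and from 0 to 148 in the difference of Treg differences. Without 1 library they ranged from 828 to 2185 in WT Tregs against WT non-Tregs (lowest without WT non-Treg replicate 2), from 396 to 1029 in KO Tregs against KO non-Tregs (KO Treg replicate 2), from 30 to 323, 410 to 1189, 25 to 174 and 790 to 1981 in KO FoxP3+CD25- cells against KO non-Tregs, KO Tregs (both lowest without KO FoxP3+CD25- replicate 2), WT non-Tregs (WT non-Treg replicate 1) and WT Tregs, from 1 to 7 in KO against WT Tregs, from 0 (without WT or KO non-Treg replicate 1) to 50 in non-Tregs and from 0 to 121 (without WT Treg replicate 2) in the difference of Treg differences. The cause was not tested.

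Log2 fold changes that changed sign, none of them called, were as follows. *Ccr9* in KO FoxP3+CD25- cells against WT non-Tregs was 0.070 with DESeq2, 0.029 with the legacy method and 0.035 with the replicate number as a block. With the term for WT replicate 1, *Ccr2* and *Ccr9* were 0.46 and 0.29 in that comparison, *Ccr2*, *Ccr4*, *Ccr8*, *Ccr9* and *Cxcr6* were 0.40, 0.20, 0.29, 0.18 and 0.71 in KO against WT Tregs, and *Cxcr4* was -0.14 in KO against WT non-Tregs. Without both libraries of WT replicate 1, *Cxcr6* was -0.25 in WT Tregs against WT non-Tregs, *Ccr2*, *Ccr6* and *Ccr9* were 0.59, 0.34 and 0.45 in KO FoxP3+CD25- cells against WT non-Tregs, *Ccr2*, *Ccr4*, *Ccr7*, *Ccr8*, *Ccr9* and *Cxcr6* were 0.36, 0.41, -0.056, 0.24, 0.086 and 0.95 in KO against WT Tregs, and *Cxcr4* was -0.19 in KO against WT non-Tregs.

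Ranges without 1 library that crossed 0 were, in WT Tregs against WT non-Tregs, -0.43 to 0.44 (*Cxcr4*), -1.01 to 0.94 (*Cxcr6*) and -0.97 to 0.25 (*Cxcr3*). In KO against WT Tregs they were -1.53 to 0.36 (*Ccr2*), -0.80 to 0.41 (*Ccr4*), -0.056 to 0.25 (*Ccr7*), -0.34 to 0.24 (*Ccr8*), -0.70 to 0.35 (*Ccr9*), -0.94 to 0.95 (*Cxcr6*) and -0.35 to 0.27 (*Cxcr4*). In KO against WT non-Tregs they were -0.20 to 0.67 (*Cxcr4*), -0.10 to 2.03 (*Ccr2*) and -0.065 to 0.9956 (*Ccr8*), and in the difference of Treg differences -1.76 to 0.20 (*Cxcr6*), -0.74 to 0.13 (*Cxcr4*) and -1.05 to 0.0069 (*Ccr8*). In KO FoxP3+CD25- cells they were -1.53 to 0.59 (*Ccr2*), -1.12 to 0.34 (*Ccr6*), -0.78 to 0.62 (*Ccr9*) and -0.58 to 0.97 (*Ccr8*) against WT non-Tregs and -0.92 to 0.64 (*Ccr8*) and -0.030 to 0.19 (*Ccr7*) against KO non-Tregs, and *Ccr9* spanned -0.24 to 0.81 in KO Tregs against KO non-Tregs.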

Other observations

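*Ackr4*, an atypical receptor that takes up Ccl19 and Ccl21, the ligands of *Ccr7*, had means from 3.29 ± 0.952 CPM in KO Tregs to 5.23 ± 1.06 in KO FoxP3+CD25- cells.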
